A study of Drosophila melanogaster with 4 samples.

Results

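The 73 genes of the Drosophila melanogaster genome whose symbol begins with mRpL or mRpS encode proteins of the mitochondrial ribosome, 47 named for its large subunit and 26 for its small subunit. They were taken by symbol from the RefSeq gene table of release 6, out of 17684 genes on chromosome arms 2L, 2R, 3L and 3R and chromosomes 4 and X, here called the main arms, of which 13922 are protein-coding. All 73 are protein-coding genes on 2L (12), 2R (12), 3L (17), 3R (21) and X (11). Open chromatin was mapped by ATAC-seq, a method in which Tn5 transposase inserts sequencing adapters where DNA is exposed, on thoracic muscle enriched for flight muscle from pharate animals, which are adults not yet eclosed, kept at 25 °C until 96 hours after the puparium formed. The control genotype was w[1118]. The mutant was w[1118];Pgk[Delta.E2F]; + line 12, in which an E2F site upstream of the glycolytic gene Pgk is mutated in the same w[1118] background. There were 2 libraries per genotype, each from a pool of at least 40 animals, and the mutant is represented by 1 line.

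The mitochondrial ribosome translates the few messages of the mitochondrial genome, which encode subunits of the respiratory chain and ATP synthase. Its RNAs come from the mitochondrial genome, but its proteins are encoded in the nucleus, made in the cytosol and imported. Flight muscle is among the tissues richest in mitochondria, which fill much of the fibre between the myofibrils. By the usual numbering, large subunit proteins up to L36 and small subunit proteins up to S21 have a bacterial counterpart, and higher numbers were added to the ribosome in mitochondria. On that basis 42 members have a bacterial counterpart and 31 do not. Subunits are given here as the symbols name them. The mammalian counterparts of mRpS18A and mRpS30 sit in the large subunit in spite of their names.

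Control 1 had 30300 listed peaks, control 2 had 30787, mutant 1 had 26186 and mutant 2 had 26880. The recovered background, which stands in for depth, was 7.44 fragments per base in control 1, 7.61 in control 2, 4.62 in mutant 1 and 5.26 in mutant 2, so genotype and depth moved together in every count below. At that background, peaks were called down to fold enrichments of 2.25, 2.21, 2.67 and 2.56 in the same order. Of 11 flight muscle marker genes, Act88F, fln and Mhc among them, 11 had a peak in all 4 libraries. So did 12 of 16 marker genes of other cell types. The hemocyte genes differed, with a peak of srp in all 4 libraries and of Hml and NimC1 in none. In this count, over the gene span plus 500 bp, the share of protein-coding genes was 49%. The markers are longer genes, with median spans of 11304 and 13970 bp against 2163 bp. Within 250 bp of either gene end 8 of 11 and 7 of 16 had a peak in all 4 libraries, against 30.4%. A peak at a marker gene is not expression, and the part of other cell types in the results was not tested.

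A member was counted as called in a library if a peak shared at least 1 bp with its span extended by 500 bp on each side. Of the 73 members, 63 were called in control 1, 63 in control 2, 51 in mutant 1 and 59 in mutant 2. The controls were thus alike and above both mutants, and mutant 1 was the lowest. The mutant mean was 55 ± 5.66 (SD, n = 2) against 63 ± 0 (SD, n = 2) in the controls, a difference of -8 genes. The exact permutation test over libraries gave a two-sided p of 0.33, the smallest that 2 against 2 allows. Without mutant 1 the difference was -4 genes, and without mutant 2 it was -12. With lists of equal length it was -5.5 genes and the genotypes touched, since control 2 and mutant 2 had 59 each.

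Accessible chromatin was called more often at these genes than at the average protein-coding gene, in all 4 libraries. Control 1 called 86.3% of the members against 65.7% of protein-coding genes and 60.1% of all genes, and control 2 called 86.3% against 67% and 61.3%. Mutant 1 called 69.9% against 61.7% and 56%, and mutant 2 called 80.8% against 60.8% and 55.6%. The margin over protein-coding genes was therefore 20.6 percentage points in control 1 and 19.3 in control 2, 8.20 in mutant 1 and close to the controls in mutant 2 (exact permutation test between genotypes, two-sided, p = 0.667). The members are short, with a median span of 909 bp against 2163 bp for protein-coding genes, so their windows cover less DNA.

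A window at the gene ends gives genes of different length more equal room. Within 250 bp of either end, control 1 called 54 members, control 2 called 48, mutant 1 called 37 and mutant 2 called 51, and 31 (42.5%) were called in all 4, against 30.4% of protein-coding genes. Control-only calls at an end numbered 3, against 3.25% of protein-coding genes and 2.92% of all genes, and mutant-only calls 1, against 0.294% and 0.311%. Here the genotypes overlapped, mutant 2 lying between the controls, and the difference of -7 genes was within the spread of the libraries (two-sided exact permutation test, p = 0.667). In protein-coding genes the same window was called in 52%, 48.3%, 36% and 44.6%, in the same order of libraries, so mutant 1 was lowest there too. Without mutant 1 the difference between the genotypes was 0 genes.

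**Figure D1:**
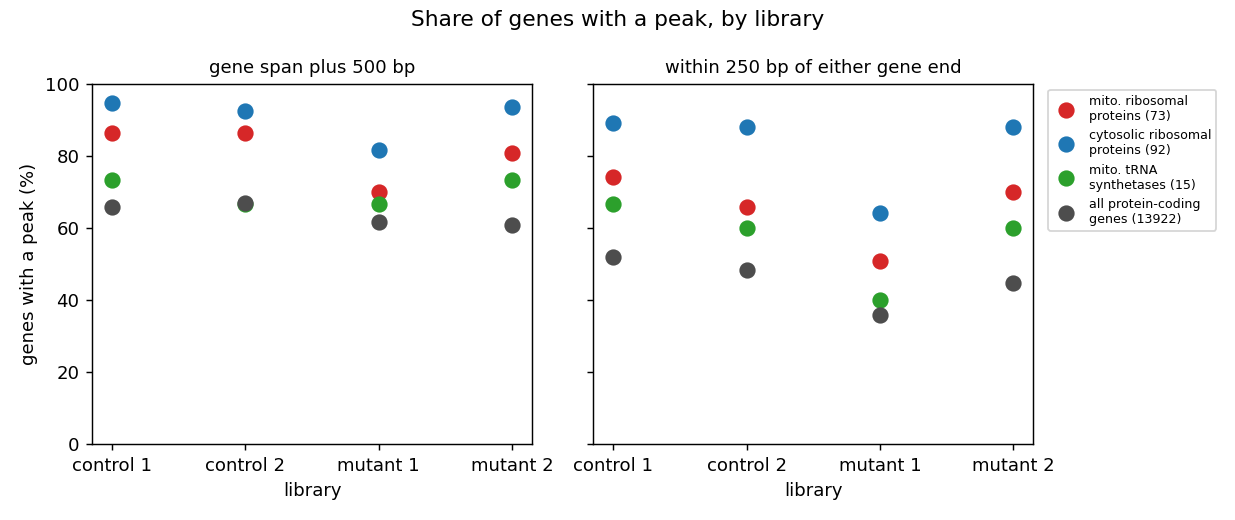
Share of genes with a peak (%, vertical axis) in each of the 4 libraries (horizontal axis), for the mitochondrial ribosomal protein genes, the cytosolic ribosomal protein genes, the mitochondrial aminoacyl-tRNA synthetase genes and all protein-coding genes; each point is 1 library. The left panel counts peaks in the gene span plus 500 bp and the right panel peaks within 250 bp of either end; the mitochondrial ribosomal protein genes stood at 69.9% in mutant 1 and at 80.8% to 86.3% in the other libraries on the left.

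The number and the length of the peaks in these windows were lower in both mutants. The 73 windows held 111 peaks in control 1, 105 in control 2, 71 in mutant 1 and 95 in mutant 2 (exact permutation test, two-sided, p = 0.33). These peaks covered 15389, 14792, 8361 and 11087 bp in the same order of libraries, a mutant mean of 0.644 times the control mean (exact permutation test, two-sided, p = 0.33). For both measures the genotypes did not overlap, and mutant 1 was again the lowest. The same held for the whole main arms. There the lists held 29341, 29923, 25528 and 25985 peaks, a mutant mean of 0.869 times the control mean. Those peaks covered 5094, 5434, 3977 and 4054 kb in the same order of libraries. The background used as depth was 0.656 times as high in the mutants, and its part in the difference was not tested.

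By library, 46 of the 73 members (63.0%) were called in all 4, against 49% of protein-coding genes and 44.6% of all genes. Another 10 were called in 3 libraries, 11 in 2 and 0 in 1, and 6 (8.22%) in none, against 22.6% of protein-coding genes in none. A call in all 4 libraries need not mark a shared site. At 40 of the 73 members (54.8%) the peaks of all 4 libraries fell in the same merged stretch. That share was not taken for other genes. Among the large subunit genes 30 of 47 were called in all 4 libraries, and among the small subunit genes 16 of 26. Of the members with a bacterial counterpart 28 of 42 were called in all 4, and of those without one 18 of 31. These are counts over genes, which are not replicates, and no test was made of them.

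**Figure D2:**
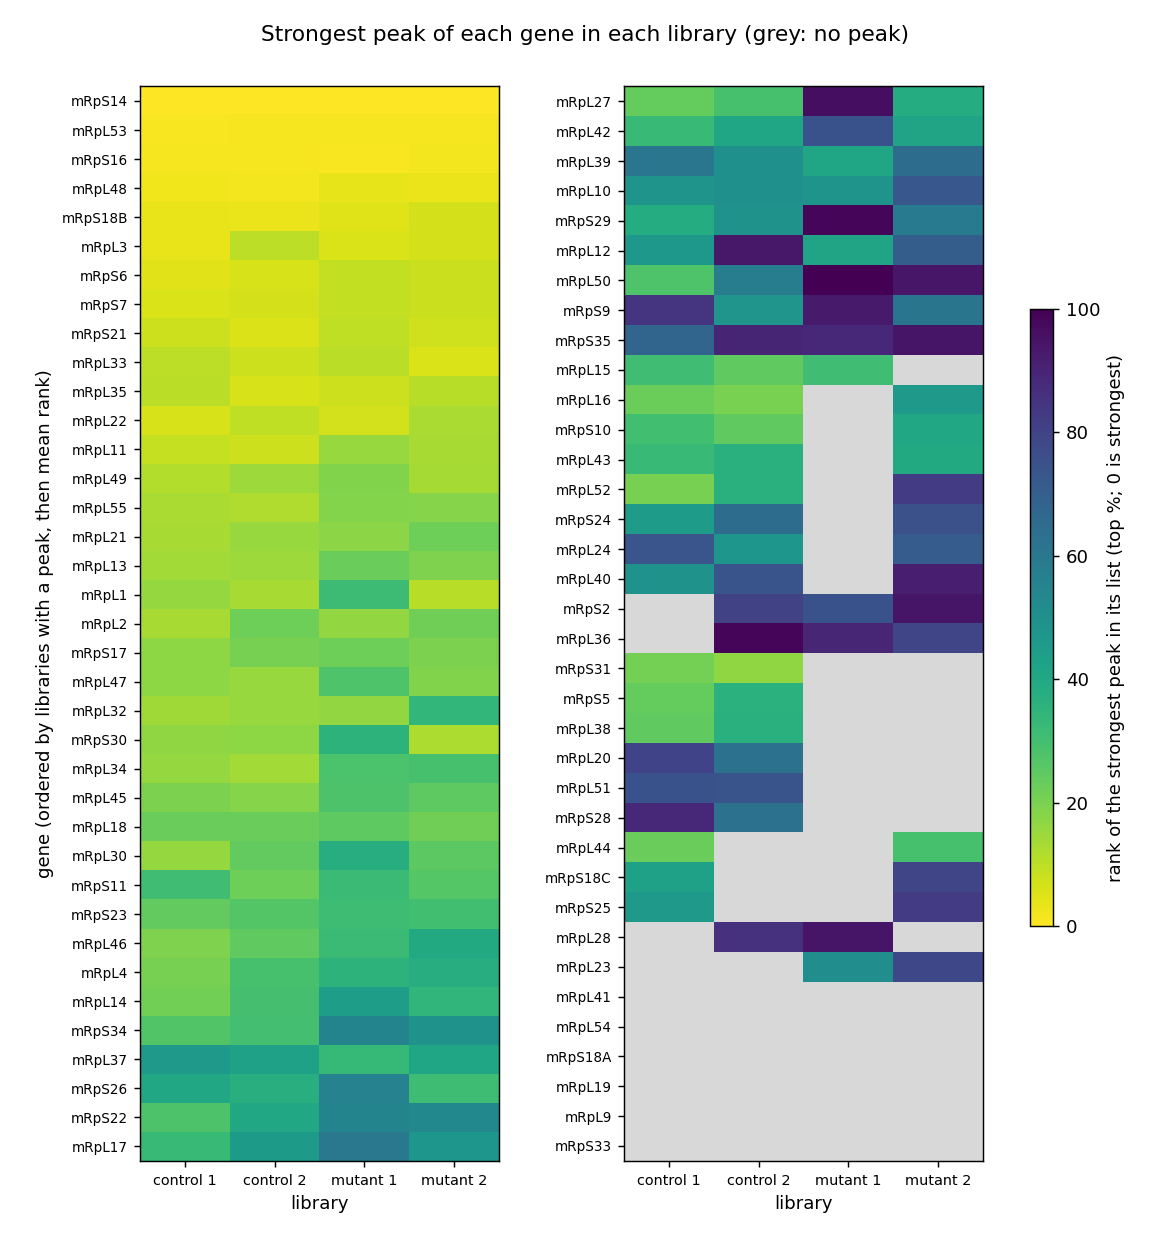
Rank of the strongest peak within its own library's list (colour; 0% is the strongest peak of the list, 100% the weakest) for each of the 73 genes (rows, in 2 columns of panels) in each library (horizontal axis); grey marks a library with no peak in the gene span plus 500 bp. The top of the left panel holds genes with strong peaks in every library, such as mRpS14, and the 6 genes at the foot of the right panel have no peak in any library.

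The strongest peaks of the family were found at mRpS14, mRpL53, mRpS16 and mRpL48, chosen with mRpS18B, mRpL3, mRpS6 and mRpS7 as the 8 members of best mean rank. Peaks were ranked by −log10 p within each library's main-arm list, and the fold enrichments given are the authors' values against each library's own background. mRpS14 encodes the counterpart of a bacterial small subunit protein of the head domain. Its peak had fold enrichments of 25.9 in control 1, 25.9 in control 2, 18.2 in mutant 1 and 20.6 in mutant 2. It lay in the top 0.13% and 0.0969% of the control lists and in the top 0.368% and 0.273% of the mutant lists, so it was among the strongest peaks of every library. The summits fell 20 to 26 bp beyond the end of the gene at X:19480238, in the merged region X:19480157-19480681.

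The peak of mRpL48, a large subunit protein without a bacterial counterpart, had fold enrichments of 19.6, 17.4, 10.2 and 15.1 in control 1, control 2, mutant 1 and mutant 2. Its summits lay 13 to 23 bp outside the gene end at 2L:1710462. In every library it ranked in the top 3.87% or better.

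mRpL53, another large subunit protein without a bacterial counterpart, had fold enrichments of 19.2, 16.6, 14.8 and 16.1 in the same order of libraries. Its region, 2R:13953975-13954237, is as near to an end of CG33155 as to its own, at 112.5 bp from either. AGO1, the Argonaute of the microRNA pathway, and CG33155 both overlap the span of mRpL53.

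mRpS16, the counterpart of a bacterial small subunit assembly protein, had fold enrichments of 13.3, 13.2, 11.8 and 12.8. The median summit lay 86.5 bp beyond its own end but 10.5 bp from an end of cg, which encodes the zinc finger protein combgap. The peak therefore lies at the boundary between a housekeeping gene and a developmental regulator, and a peak list assigns it to neither.

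Most of the 8 strongest peaks were of this shared kind. The median summit was nearer to the gene's own end than to an end of any other gene in 2 of the 8, mRpS14 and mRpL48. At mRpS6, whose bacterial counterpart pairs with S18 on the small subunit, fold enrichments were 19.3, 14.98, 9.60 and 12.9 in control 1, control 2, mutant 1 and mutant 2. That summit lay 433 bp outside mRpS6 and 15 bp from an end of Cip4. At mRpS7, an rRNA-binding protein of the small subunit head in bacteria, the fold enrichments were 17.5, 14.1, 9.26 and 12.8. The summit was the same base in all 4 libraries, 395 bp beyond the gene end and 58 bp from an end of da, the gene of the bHLH factor daughterless.

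mRpL3, whose counterpart in bacteria reaches the peptidyl transferase centre, had fold enrichments of 20.4, 12.0, 11.7 and 14.1 in control 1, control 2, mutant 1 and mutant 2. Its summit lay 489 bp outside the gene and 26 bp from an end of Graf. mRpS18B, 1 of 3 genes for versions of bacterial S18, had fold enrichments of 16.1, 15.3, 10.9 and 11.7. Its region was the widest of those called in all 4 libraries, at 744 bp, and the summit lay 580 bp outside the gene and 252 bp from an end of Kua.

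**Figure D3:**
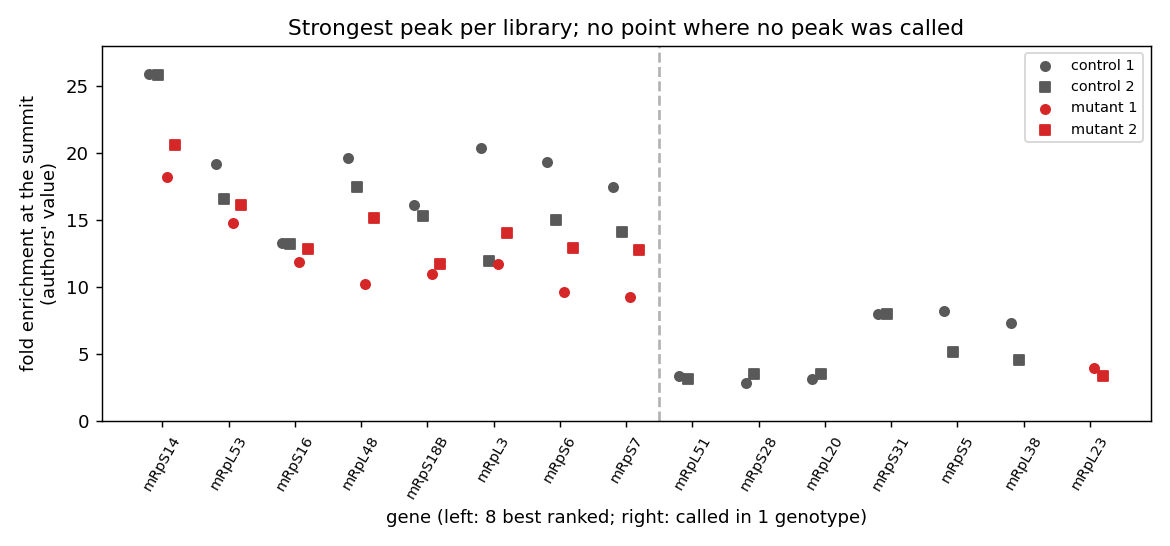
The authors' fold enrichment at the summit of the strongest peak (vertical axis) for the 8 best-ranked members (left of the dashed line) and the control-only and mutant-only members (right), 1 point per library, with controls in grey and mutants in red. The best-ranked genes lie between 9.26 and 25.9 in all 4 libraries, while genes called in 1 genotype lie between 2.84 and 8.17 where they have a peak.

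Across the family the accessible region was at or outside the gene boundary more often than in the gene body. For each of the 67 members with a peak, the region called in the most libraries, and of those the best ranked, was taken as its leading region. The median summit lay outside the gene span in 48 of 67 (71.6%), and within 100 bp of an own end, inside or outside, in 22. The same shares were not taken for other genes. With a median span of 909 bp and 500 bp added on each side, much of each window lies outside the gene to begin with. Whether the count is particular to this family was not tested. The 22 regions within 100 bp of an end had a median mean rank in the top 28.2%. The 29 regions outside by over 100 bp had a median rank in the top 19.9%, and the 16 inside by over 100 bp in the top 65.6%. The best-ranked of the 16 inside the gene was that of mRpS5, at 29.8%, so none reached the top 20% of the lists.

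The members lie close to their neighbours. Another gene reached into the 500 bp window of 72 of 73 members (98.6%), against 84.4% of protein-coding genes, and 43 members were overlapped by another gene. The exception was mRpS5. The median summit was nearer to an own end in 30 of 67 members. In the other 37 it was as near or nearer to an end of another gene. Of the 29 regions outside by over 100 bp, 2 had the member's own end as the nearest, those of mRpL49 and mRpL23. The lists carry no strand and the gene table used here gives none, so which of these ends are transcription starts is not known here.

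**Figure D4:**
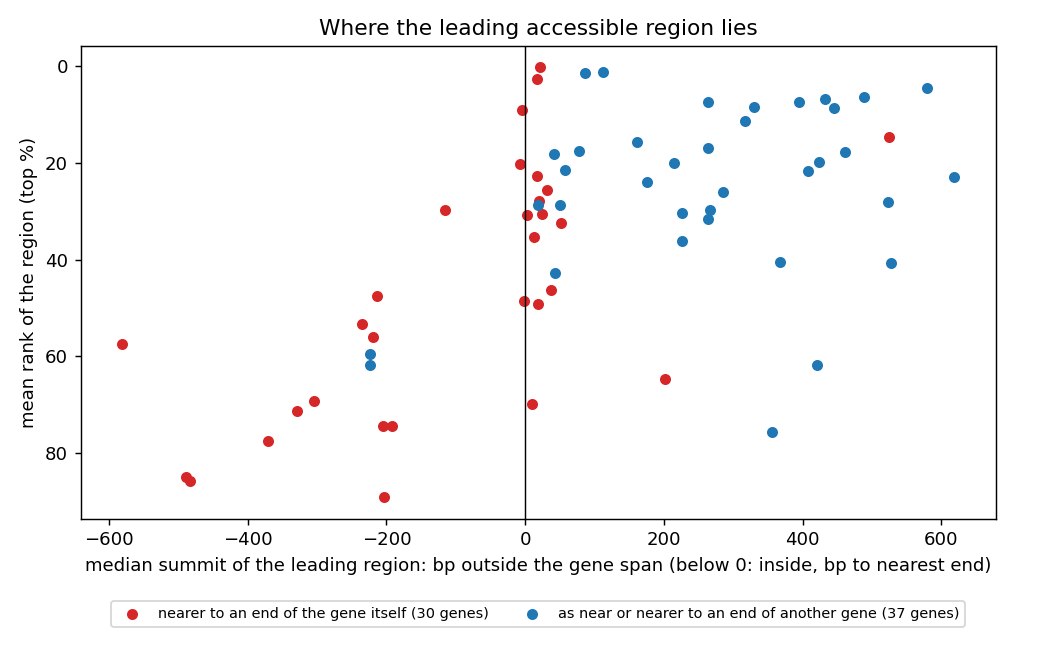
Position of the median summit of each leading region (horizontal axis: bp outside the gene span, values below 0 being inside, measured to the nearest end) against the mean rank of the region in the lists (vertical axis, top %; strong peaks at the top). Red marks the 30 genes whose own end is the nearest gene end and blue the other 37; mRpS9, 3119 bp inside its span, is left off the axis. The strong regions lie at or right of 0, and 13 of the 16 regions inside by over 100 bp are nearest to the member's own end.

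The neighbours named next were picked from the table after the values were seen, and no theme among neighbours was tested. mRpL44 encodes an RNase III-like large subunit protein, and its summit lay 4.5 bp from an end of Snr1, a subunit of the Brahma chromatin remodelling complex. The mRpL21 summit lay 15 bp from an end of rept, the gene of the ATPase reptin, and that of mRpS17 13 bp from an end of Nop60B, the rRNA pseudouridine synthase. The mRpL34 summit lay 24 bp from an end of Dg, which encodes dystroglycan of the muscle membrane. The windows of mRpL35 and mRpL55 reached Mitofilin, which shapes the inner mitochondrial membrane, and ATPsynD, a subunit of ATP synthase.

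When only summits nearest to an own end were counted, the members no longer stood above other genes in the mutants. On that count control 1 called 40 members, control 2 called 41, mutant 1 called 29 and mutant 2 called 34, a difference of -9 genes with no overlap (exact permutation test, two-sided, p = 0.33). The shares of the members were 54.8%, 56.2%, 39.7% and 46.6%, against 52.0%, 53.0%, 48.0% and 47.0% of protein-coding genes. In all 4 libraries 20 members were called this way, or 27.4%, against 34.5% of protein-coding genes. This way of counting was added after the neighbours had been seen.

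Summit positions lay close together where the peaks of all 4 libraries merged into 1 region. Such regions had a median width of 168.5 bp, which limits how far apart their summits could lie. Members whose libraries peaked at different places are not among them. In the 40 leading regions called in all 4 libraries, the summits spanned a median of 16 bp, from 0 to 139 bp. They spanned at most 10 bp in 15 regions and at most 50 bp in 36. Besides mRpS7, the summit of mRpS21 was at the same base in all 4 libraries, 263 bp beyond the gene and 34 bp from an end of Droj2, which encodes a DnaJ-type chaperone. The largest span, 139 bp, was that of the wide mRpS18B region. In these 40 regions a median of 145 and 140.5 bp was called in controls 1 and 2 and 112.5 and 132.5 bp in mutants 1 and 2, so the called stretches were longer in both controls than in either mutant.

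Regions with a peak at the gene's own end in every library included those of mRpL45, mRpL30 and mRpL22. The bacterial counterpart of mRpL22 lines the tunnel through which the new chain leaves the ribosome, and mRpL45 in mammals sits at the exit of that tunnel by the membrane. At mRpL45 the summits lay 15 to 17 bp outside the gene in the 4 libraries. Its fold enrichments were 8.81, 7.71, 5.39 and 7.02 in control 1, control 2, mutant 1 and mutant 2. At mRpL30 they were 10.8, 6.97, 4.80 and 7.19, with summits 29 to 33 bp outside the gene. Both are thus peaks at the member's own boundary. At mRpL22 the fold enrichments were 13.8, 10.6, 9.79 and 9.76, with summits from 11 bp outside the gene to 8 bp inside it. These 3 were chosen after their values were seen.

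The weakest members called in all 4 libraries were mRpS29, mRpL12, mRpL50, mRpS9 and mRpS35. mRpS35 had 1 peak per library inside the gene, with fold enrichments of 3.53, 2.62, 2.90 and 2.81 in control 1, control 2, mutant 1 and mutant 2, between the top 67.4% and 94.2% of the lists. mRpL12 encodes the stalk protein that recruits translation factors. Its strongest peaks lay 13, 352, 218 and 220 bp inside the gene in control 1, control 2, mutant 1 and mutant 2, so the position shared by both mutants was called in neither control. At mRpS29, the GTPase known in mammals as DAP3, the summits in both controls and mutant 2 fell within 2 bp of the gene end, and that of mutant 1 was 416 bp inside.

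mRpL50 ranked in the top 27.7% of control 1 and 57.6% of control 2, and in the top 99.8% and 94.1% of mutants 1 and 2, just inside the lists. mRpS9, the counterpart of a bacterial protein near the tRNA in the small subunit head, has a span of 13391 bp, in which ArgRS-m and wtrw also lie. It and mRpS5 are the members with a span over 2500 bp. It had 3, 4, 1 and 4 peaks in control 1, control 2, mutant 1 and mutant 2, and its strongest peak lay at a different place in each library. Of the 7 merged regions in its window 0 were called in all 4 libraries, so its 4 calls do not mark 1 shared site.

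No peak was called in any library at mRpL9, mRpL19, mRpL41, mRpL54, mRpS18A and mRpS33. mRpL9 and mRpL19 have bacterial counterparts in the large subunit, the latter at the face towards the small subunit. mRpL9 is overlapped by Fkbp39, mRpL41 by CG11808 and mRpS33 by CG14881. A summit at the background of a library needed a pileup of at least 18 fragments in either control, 14 in mutant 1 and 15 in mutant 2 to be called, so openness below this was not detectable. At 1000 bp on each side mRpS18A was called in both controls and neither mutant.

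Calls in both controls and neither mutant were made at 6 of 73 members (8.22%), mRpL20, mRpL38, mRpL51, mRpS5, mRpS28 and mRpS31. The share among all protein-coding genes was 2.44%, and among all genes 2.31%. Of members called in both controls these were 6 of 60, or 10%, against 4.04% of protein-coding genes. Calls in both mutants and neither control were made at 1 member, mRpL23, or 1.37%, against 0.754% of protein-coding genes and 0.707% of all genes. Of members called in both mutants this was 1 of 49, or 2.04%, against 1.45% of protein-coding genes. The members were not tested against other genes, because genes of 4 libraries are not replicates of a genotype.

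mRpS5 and mRpL38 had the best-ranked control peaks of this kind near their own ends. The bacterial counterpart of mRpS5 helps to form the channel by which the message enters the small subunit. Its peak, at 3L:24537275-24537411, was 115 and 116 bp inside the gene, had fold enrichments of 8.17 and 5.11 in controls 1 and 2, and ranked in the top 23.6% and 36%. No peak was called in the window in mutant 1 or mutant 2. mRpL38 encodes a large subunit protein without a bacterial counterpart. Its peak, at X:14226232-14226324, lay 24 and 25 bp outside the gene, with fold enrichments of 7.33 and 4.55 in the controls and ranks in the top 24.4% and 36.5%.

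At the recovered pileups the mRpS5 summit held 68 and 43 fragments in the controls and the mRpL38 summit 71 and 48. At the background of either control 18 were needed. The local background at mRpL38 was higher, 8.83 in control 1 and 9.77 in control 2, so the limit of 18 does not apply there. All 6 members were again control-only when the lists were matched for the recovered background, and 5 of them at equal list length, mRpS28 being the exception. With the gene span alone 4 of the 6 were control-only, without mRpS28 and mRpS31. With 1000 bp on each side 3 of the 6 were, mRpS5, mRpL20 and mRpS28. At mRpL38, mRpL51 and mRpS31 the wider window also took in a peak of a mutant library, so they were no longer control-only. The weaker cases were mRpL20, whose bacterial counterpart acts early in large subunit assembly, mRpL51 and mRpS28. Their fold enrichments ran from 2.84 to 3.48 in the controls, in the top 62.7% to 88.7% of the lists.

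The mRpS31 case rests on the edge of the window. Its region, 3L:16004520-16004772, was called in both controls with fold enrichments of 8 and 7.98, and also in mutant 2 with 6.08. The control peaks reached 80 and 77 bp into the window, and the peak of mutant 2 ended 82 bp short of it. The summits lay about 619 bp outside mRpS31 and nearer to hzg, at 162 bp. mRpS31 is therefore not a gene whose accessible region was lost in both mutants, and 5 control-only members are left without it.

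mRpL23, whose bacterial counterpart forms part of the tunnel exit where chaperones dock, was called in mutants 1 and 2 alone, at 3L:2372562-2372677. The fold enrichments were 3.95 and 3.34, in the top 50.9% and 78.5% of the lists. Its summits lay 202 and 201 bp outside the gene. With the gene span alone or with 1000 bp on each side mRpL23 was not mutant-only, and 0 members were.

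A missing call in a single library was seen at 10 members and fell most often on mutant 1. Only mutant 1 lacked a call at 7 of them, mRpL16, mRpL24, mRpL40, mRpL43, mRpL52, mRpS10 and mRpS24, and only mutant 2 at 1, mRpL15. These are 9.59% and 1.37% of the members, against 5.96% and 3.05% of protein-coding genes, which also lacked a call in mutant 1 more often than in mutant 2. Control 1 alone lacked a call at mRpL36 and mRpS2, or 2.74% of the members, against 1.41%. mRpL16, whose bacterial counterpart helps to place tRNA on the large subunit, had fold enrichments of 7.85 and 7.19 in controls 1 and 2 and 4.62 in mutant 2. Its summits lay at a median of 40 bp from an end of trr, the gene of a histone H3K4 methyltransferase. mRpL43 had 5.36, 4.34 and 4.82 in the same 3 libraries. mRpS10 had 6.62, 6.79 and 5.37, but its strongest peak lay 16 bp inside the gene in control 1 and 274 and 260 bp outside it in control 2 and mutant 2. Control 1 also called that outer region, with a fold enrichment of 6.58, so the outer site was shared by these libraries.

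At mRpL15, by contrast, fold enrichments of 6.63, 6.85 and 5.33 were called in control 1, control 2 and mutant 1. The summits lay 35 to 67 bp beyond the gene, with a median 9 bp from an end of CtIP. At mRpL52 the strongest control peak, with fold enrichments of 8.01 and 4.73 in controls 1 and 2, lay over 500 bp outside the gene. Mutant 2 had only a weaker peak inside the gene, with 3.35, which both controls also had, with 3.49 and 3.44. The outer peak, at 2R:7672979-7673341, was 1 of 2 regions of the mRpL52 window called in both controls and neither mutant. The region count thus holds control-only calls at mRpL52 that the gene count does not. Their cause was not tested.

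Calls in 1 control and 1 mutant were made at 4 members (5.48%), against 4.97% of protein-coding genes. Control 1 and mutant 2 alone called mRpL44, mRpS18C and mRpS25, and control 2 and mutant 1 alone called mRpL28. At mRpL44 the fold enrichments were 6.71 in control 1 and 5.39 in mutant 2, with summits 1 bp apart, although control 2 and mutant 1 had no peak. At mRpS25, mRpS18C and mRpL28 the libraries called different places. These 4 genes were named after their values were seen.

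Joined across the 4 lists, the peaks of the 73 windows formed 140 merged regions, from 0 to 7 per member. Of these 51 (36.4%) were called in all 4 libraries, against 30.3% of all merged regions of the main arms. Control-only regions numbered 14 (10%), against 5.93%, and mutant-only regions 3 (2.14%), against 1.76%. Regions called in all libraries but mutant 1 numbered 20, and those called in all but mutant 2 numbered 4. These are 14.3% and 2.86% of the regions, against 9.14% and 3.25% of all merged regions, where mutant 1 was also the library more often missing. The 14 control-only regions included 2 at mRpL13, 2 at mRpL52 and 1 at mRpL27, a bacterial-type protein near the peptidyl transferase centre, where fold enrichments were 5.79 and 4.69 in controls 1 and 2. The mutant-only regions lay at mRpL23, mRpL12 and mRpS26.

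At mRpL48 and mRpS6, which were called in all 4 libraries, the control-only region was a weaker peak beside one shared by all 4. At mRpL48 the second region had fold enrichments of 2.10 and 2.32 in the controls. At mRpS6 it had 3.08 and 2.79. Both lay inside the gene. mRpL27 and mRpS9 were also called in all 4 libraries but had 0 regions called in all 4. The same was true of mRpL12, mRpS26, mRpS29 and mRpS34. The leading region of mRpL27, called in both controls and mutant 2, had fold enrichments of 6.22, 4.80 and 4.85, so its control-only region was not a minor peak beside it.

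Other genes of mitochondrial gene expression were called in all 4 libraries at shares on either side of that of the members. Among all protein-coding genes 49% were called in all 4 libraries, 2.44% were control-only and 0.754% mutant-only. Of 9 matched translation factors 6 (66.7%) were called in all 4 libraries. These were the elongation factors mEFTu1, mEFTu2, mEFTs and mEFG1, the initiation factor mIF2 and the release factor mRF1. mIF3 had no peak in any library and mRRF1, a ribosome recycling factor, was called in mutant 1 alone. Of 15 mitochondrial aminoacyl-tRNA synthetases 7 (46.7%) were called in all 4 libraries, 1 (6.67%) was control-only, AsnRS-m, and 0 were mutant-only. Of 8 genes of mitochondrial transcription and RNA stability 4 (50%) were called in all 4, including TFAM, which packages mitochondrial DNA, and the RNA polymerase PolrMT. The shares of the synthetases and of the transcription genes were close to that of protein-coding genes. mTerf3 and bsf lacked a call in mutant 1 alone, as did 5.96% of protein-coding genes.

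Genes of 2 further mitochondrial ribosomal proteins carry other symbols, tko and bonsai, and are not counted among the 73. tko, the small subunit S12 protein whose mutants are sensitive to mechanical shock, had fold enrichments of 17.3, 14.2, 8.62 and 13.9 in control 1, control 2, mutant 1 and mutant 2. Its summits lay 28 to 31 bp beyond an end of the gene. bonsai, the S15 protein, had 10.8, 6.87, 4.62 and 4.99, with summits 39 to 45 bp outside the gene. Both were called in all 4 libraries.

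Cytosolic ribosomal protein genes, which serve translation outside the mitochondria, were called in a larger share in every library. Of 92 such genes, control 1 called 87, control 2 called 85, mutant 1 called 75 and mutant 2 called 86, and 72 (78.3%) were called in all 4. Mutant 1 was again the lowest, and the genotypes overlapped (exact permutation test, two-sided, p = 0.667). Control-only calls were made at 1 and mutant-only calls at 1 of these 92 genes. Of the cytosolic genes called in control 1, 42.5% had a peak in the top 10% of the list, against 17.5% of the mitochondrial ribosomal genes and 28% of protein-coding genes. In control 2 these shares were 41.2%, 19.0% and 27.1%, and in mutant 2 they were 41.9%, 16.9% and 25.1%. In mutant 1 they were 36%, 21.6% and 22.7%, so there the mitochondrial ribosomal protein genes were close to protein-coding genes. These shares were not tested.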

How the data were processed

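ATAC-seq peak lists of 4 libraries, 2 control and 2 mutant, were used as the authors deposited them, called per library. Per the submitters' processing notes, the tools were bcl2fastq 2.20, cutadapt 2.3, Bowtie2 2.4.1, Picard, MultiQC 1.5 and MACS2 2.2.7.1, and the build was BDGP6; parameters are not given in the sources used here. Each deposited peak carries a score, a fold enrichment ratio at the summit, −log10 p, −log10 q and a summit offset, all made by the authors' peak caller. No read counts were used, so depth was read from the local background solved from fold enrichment and p with a Poisson model, and it is relative.

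Members and lists were chosen with earlier results of these data known. Gene spans came from the RefSeq table of release 6, which gives no strand, so a window at either gene end stood in for the planned window at the start. A gene was called where a peak overlapped its window by at least 1 bp. Peaks of the main arms that overlapped were merged into regions. Named members were the 8 of best mean rank, the 5 of worst mean rank among those called in all 4 libraries, and those called in 1 genotype alone, in no library, or in all but 1 library, with tko and bonsai; others are said to be chosen after their values were seen. Library counts were compared with an exact permutation test (scipy 1.17.1, pandas 2.3.3, Python 3.11.15). Its p is the share of the 6 labelings of these libraries that give a difference at least as large. It cannot go below 0.33, and the spread between these libraries may be technical. Scripts were tested on simulated data. Alternatives were equal list length, stricter q, other windows, summits in place of overlap, lists cut to a matched background, each library left out and a replicate block.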

Additional observations from a re-analysis of the deposited data

How the results depend on the processing

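Of 88 alternative values, 70 stayed within 1.5 times the main value or kept its direction, 18 moved and 0 reversed. Only the differences could reverse, and they were judged by direction whatever their size. The counts have no direction and were judged by size. The difference between the genotypes of -8 members called was -5.5 at equal list length, -7 with peaks cut to a common recovered background, -9 at a −log10 q of at least 3, -12.5 at 5 and -11.5 with the gene span alone, and from -12 to -4 with each library left out. With the replicate block it was -8 (exact sign-flip permutation test, p = 0.5); the 2 pairs of numbers had a correlation of -0.0960 and do not pair the libraries. Within 250 bp of an end the difference ran from -14 to 0 with each library left out. Members called in all 4 libraries numbered 26 with the gene span alone and 20 with summits nearest to an own end, a setting chosen, like the common background, after seeing the data. At an end they numbered 31, but 20 within 100 bp and 15 by nearest summit. Control-only members ran from 6 to 13 with each library left out, the highest without mutant 2. Mutant-only members, 1 as deposited, were 2 at equal list length, 2 at a −log10 q of at least 3, 2 at the common background, 0 with the span alone and 0 with 1000 bp, and ran from 1 to 3 with each library left out. The same omissions gave 18 to 34 control-only regions and 3 to 9 mutant-only ones. The cause of these moves was not tested, except that leaving out a library weakens the requirement that both libraries of a genotype carry the call. The weaker background of the mutants limits which weak peaks could be called there, and depth and genotype cannot be told apart.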
